A study of Mus musculus with 6 samples.

Results

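The nuclear receptor superfamily was examined in double-positive (DP) thymocytes with and without Hdac3. It was given as 45 mouse genes, leaving out the REV-ERB repressors, and each gene was represented by the brightest probe set that carries its symbol. A probe set was found for 43 of the 45 genes, against 19938 genes that had a probe set of their own on the array. Each of the 43 had 1 probe set, and none of these was shared with another gene. Nr1h2, which encodes LXR beta, and Nr2e3, a photoreceptor orphan receptor, had no probe set paired with them and were not analysed here.

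Expression was profiled on Affymetrix whole-transcript arrays in DP thymocytes, the CD4 and CD8 positive T cell precursors of the thymus. There were 3 arrays of Hdac3 knockout (KO) thymocytes, from mice written as LCK:Hdac3 KO in the series, and 3 arrays of wild-type (WT) thymocytes. All mice were C57BL/6 and aged 3 weeks, and the labels name no treatment. The design pools RNA of 2 KO and of 2 WT mice and counts 3 biological replicates, without saying which animals each array holds, so a p-value here weighs array-to-array spread that may be partly technical. The LCK in the strain name is that of a T-lineage kinase gene, and how it drives the deletion, and which part of Hdac3 is removed, are not given there either.

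Nuclear receptors are transcription factors that share a zinc-finger DNA-binding domain, and most also have a pocket for a small lipid-soluble ligand. Several, among them the thyroid hormone and retinoic acid receptors, bind the NCoR and SMRT corepressors when no hormone is present, and HDAC3 is the deacetylase of those complexes. In the thymus glucocorticoids can kill DP cells through the glucocorticoid receptor, and the NR4A orphan receptors are induced by T cell receptor signals and take part in negative selection.

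The labels were checked first. Hdac3 had log2 values of 8.28, 8.32 and 8.32 in KO and 9.40, 9.42 and 9.44 in WT (difference -1.12, SE 0.08, limma adjusted p = 3.5e-04). All 8 measured DP genes (Cd4, Cd8a, Cd8b1, Rag1, Rag2, Dntt, Ptcra and Cd3e) were above background, none was called, and their summed linear signal was 26938 to 27641 on KO arrays and 25564 to 28510 on WT arrays. Signal was compressed on the KO arrays, whose interquartile ranges were 3.06 to 3.25 on the log2 scale, against 3.29 to 3.49 on the WT arrays. Of 12 neutrophil markers 3 were above background by their mean over 6 arrays. The summed signal of all 12 was 303, 991 and 313 on KO arrays 1 to 3, against 265 to 303 on WT arrays, so KO array 2 stood apart. For each of the other 8 marker lists the summed signals were 150 to 482 in KO and 115 to 539 in WT, and the called markers were Il7r and Epcam, lower in KO, and Klf1, higher. Of 10 macrophage markers 4 were above background (Csf1r, Cd68, C1qa and Fcgr1) and 6 were not, among them Adgre1 and Mertk. Of 8 dendritic cell markers 2 were above background (Zbtb46 and Xcr1) and 6 were not, among them Clec9a. In bulk RNA, fewer cells of a type and less RNA per cell cannot be told apart.

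The table holds no detection calls, so signal was set against 1035 probe sets of single olfactory receptor genes, a family of the nose. The 95th percentile of their mean log2 values was 5.14, and this is called background here. Levels of different receptors were not compared, since probe sets differ in their response.

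By this measure 23 of the 43 receptors (53.5%) were above background, as were 61.9% of all probe sets tested. With the 99th percentile of 5.87 the count was 12, namely Thra, Rara, Rxra, Rxrb, Ppard, Nr2c1, Nr2c2, Nr2f6, Esrra, Nr3c1, Nr4a1 and Nr6a1. The genes just inside the lower limit were Esr1 with a mean of 5.16, Rora with 5.18, Nr4a3 with 5.19 and Nr1i3 with 5.20, and the nearest outside it was Nr1i2 with 5.08. Of the 23, 18 exceeded the limit of the same array on all 6 arrays. Nr4a3 did so on 0 of 3 KO arrays and 3 of 3 WT arrays.

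**Figure D1:**
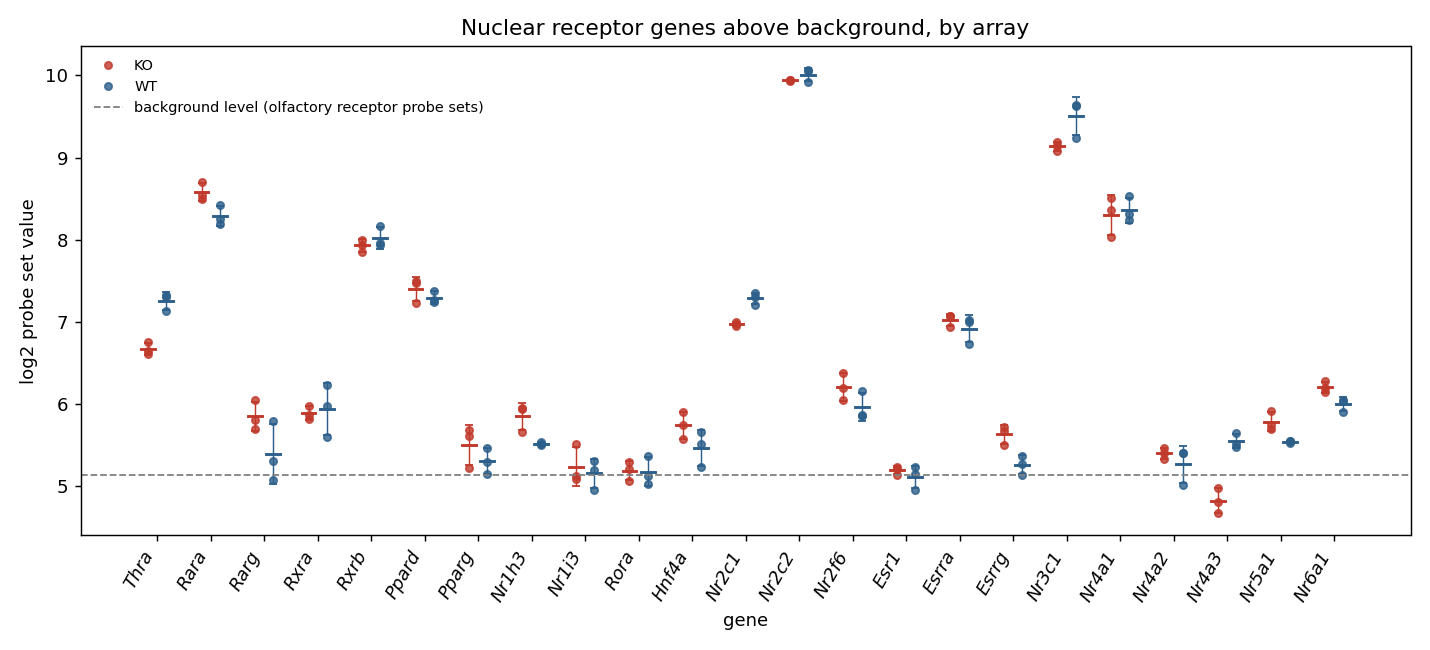
Log2 probe set values of the 23 receptor genes above background, with KO (red) left of WT (blue) for each gene; points are arrays, bars the mean and SD of 3 arrays, and the dashed line the background level of 5.14. Thra, Nr4a3, Nr2c1 and Nr3c1 lie lower on every KO array than on any WT array, and 5 other receptors lie higher. Among all 14495 probe sets above background, 3551 lie lower in this way and 1772 higher. Nr4a3 is above background only through its WT arrays, so its separation here is no further support.

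Between genotypes 2 of the 43 receptors differed at an adjusted p under 0.05, Nr4a3 and Thra, both lower in KO, and none was higher. That is 4.65% of the receptors, where 5.79% of all 23410 probe sets tested were called (1.75% higher and 4.04% lower in KO), so the receptors' share was near that of all probe sets and is no result about the family. The calls over all probe sets were 409 higher and 946 lower, and 197 higher and 1863 lower after median centring. With an unadjusted p under 0.05 there were 13 receptors (30.2%), 9 higher and 4 lower, against 25.2% of all probe sets. The groups did not overlap for 13 receptors, 9 above and 4 below all WT arrays, which again is 30.2% against 30.0% of all probe sets (13.5% above and 16.5% below). Both called receptors were also called under each of the 17 other settings tried, with limma adjusted p up to 0.032 for Nr4a3 and 0.0494 for Thra. Where dim probe sets were left out, Nr4a3 (mean 5.19, KO mean 4.83) stayed in only through its WT arrays. Its calls in those settings are therefore no further support. After quantile normalization, where 4.0% of all probe sets were called, these 2 receptors were again the ones called.

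**Figure D2:**
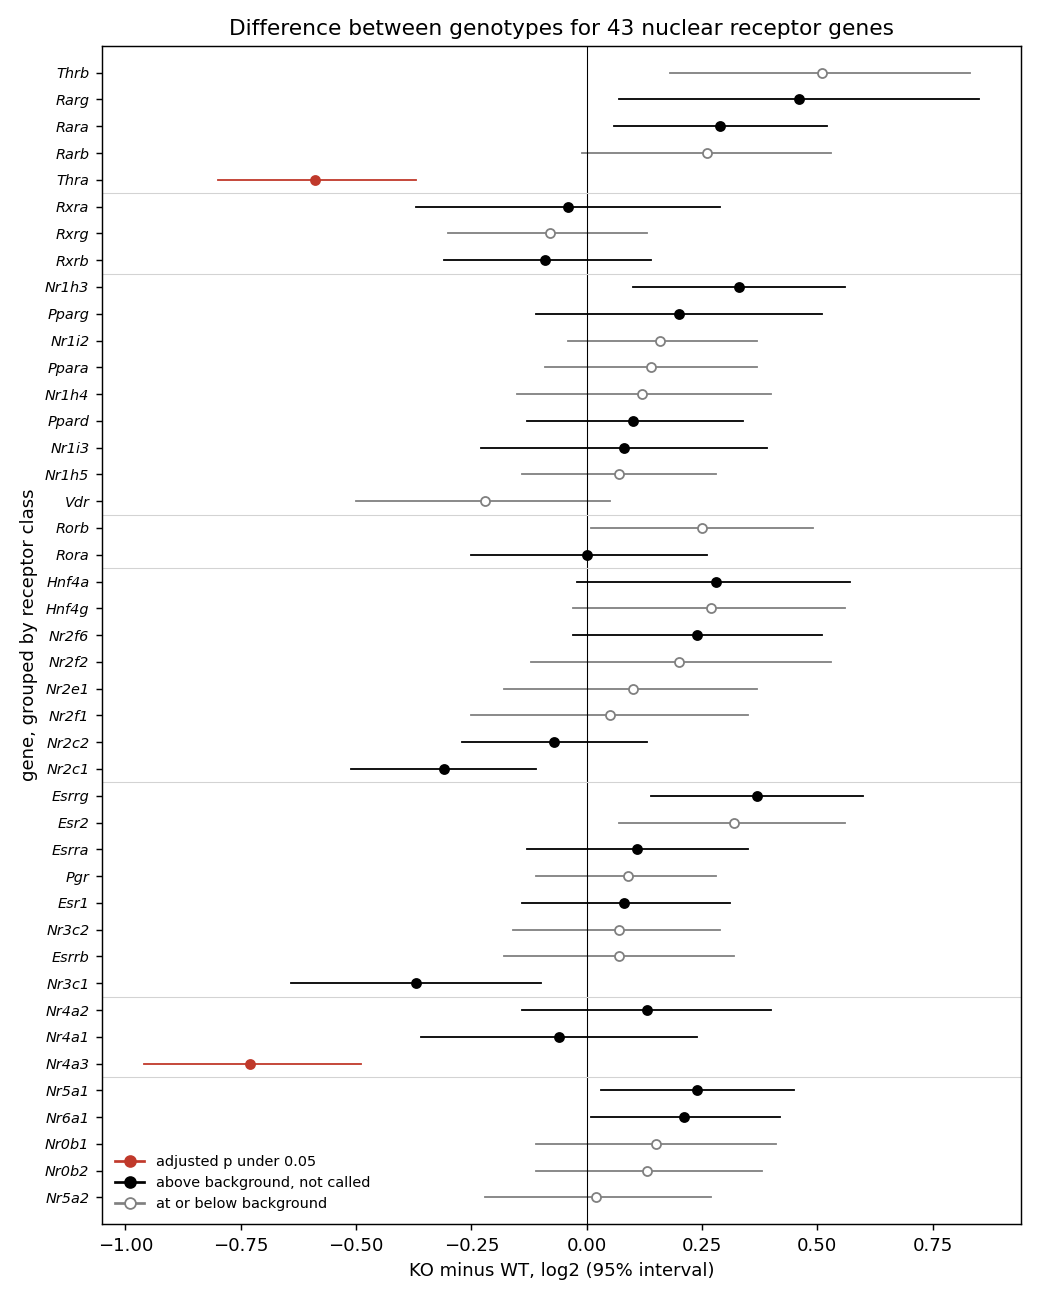
Log2 difference, KO minus WT, with its 95% interval for the 43 measured receptor genes, grouped by class and separated by grey lines. Red marks the 2 called genes, Thra at -0.59 and Nr4a3 at -0.73, black the other genes above background and open grey circles those at or below it.

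The NR4A orphan receptors are immediate-early factors that bind DNA without a known hormone, and the 3 genes are often induced together. Their promoters are shown because Nr4a3 was called and the other two were not; whether the 3 genes differ from one another was not tested. Each stretch runs from 250 bases before to 50 bases after the gene's start (RefSeq, GRCm38.p6) and is printed in the gene's direction, with capitals for the letters TGACG or their reverse complement CGTCA, the half-site of the cyclic AMP response element. Nr4a1 lies on the plus strand at chr15:101266596-101266895, Nr4a2 on the minus strand at chr2:57123954-57124253 and Nr4a3 on the plus strand at chr4:48045055-48045354.
Nr4a1: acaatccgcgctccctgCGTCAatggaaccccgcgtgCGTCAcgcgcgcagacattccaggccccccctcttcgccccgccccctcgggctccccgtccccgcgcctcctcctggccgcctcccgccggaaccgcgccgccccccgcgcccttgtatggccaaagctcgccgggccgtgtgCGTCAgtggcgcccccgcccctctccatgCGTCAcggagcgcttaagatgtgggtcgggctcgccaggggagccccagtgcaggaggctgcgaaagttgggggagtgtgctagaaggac
Nr4a2: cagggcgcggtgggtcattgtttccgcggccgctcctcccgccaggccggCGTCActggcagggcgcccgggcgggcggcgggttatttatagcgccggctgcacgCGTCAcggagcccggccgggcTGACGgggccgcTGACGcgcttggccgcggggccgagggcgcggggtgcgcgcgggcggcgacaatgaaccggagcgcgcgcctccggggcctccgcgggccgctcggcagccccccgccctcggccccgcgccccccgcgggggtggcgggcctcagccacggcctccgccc
Nr4a3: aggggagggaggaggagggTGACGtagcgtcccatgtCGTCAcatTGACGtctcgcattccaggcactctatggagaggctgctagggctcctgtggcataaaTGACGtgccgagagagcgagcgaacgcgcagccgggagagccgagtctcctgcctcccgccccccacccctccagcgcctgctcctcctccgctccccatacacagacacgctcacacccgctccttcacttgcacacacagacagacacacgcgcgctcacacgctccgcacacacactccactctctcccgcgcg

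All 3 NR4A promoters held 4 such half-sites, counting both strands. Of 32851 promoter stretches of the same length 20.8% held at least 1 and 0.231% held 4 or more. Among 60 promoters of 39 of the receptor genes, 16 (26.7%) held at least 1, and the 3 NR4A promoters were the ones with 4. The full element TGACGTCA was in none of the 3 and in 1.79% of all promoters, and neither AAAGGTCA, the element NR4A proteins themselves bind, nor AGGTCA, the half-site of many nuclear receptors, was in any of the 3 (1.51% and 16.3% of all promoters, where AAAGGTCA contains the letters of AGGTCA). Matches were counted on both strands and describe letters only.

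Nr4a3, which encodes NOR1, had log2 values of 4.68, 4.98 and 4.81 in KO and 5.52, 5.48 and 5.65 in WT. It was lower on every KO array than on any WT array, with means of 4.83 ± 0.15 in KO and 5.55 ± 0.09 in WT (SD, n = 3 each), a difference of -0.73 (SE 0.11, 95% interval -0.96 to -0.49, limma adjusted p = 0.0057). On the linear scale KO arrays reached 60.4% of the WT level (95% interval 51.3% to 71.3%). Since the KO values lay below the background of their arrays, they are no more than an upper limit there, and with each KO array set to its background level Nr4a3 was at least 1.23-fold lower in KO.

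Nr4a1, which encodes NUR77, had values of 8.03, 8.36 and 8.51 in KO and 8.31, 8.24 and 8.53 in WT. The groups overlapped (difference -0.06, 95% interval -0.36 to 0.24), and its sign turned to 0.07 after quantile normalization. Nr4a2, which encodes NURR1, had 5.33, 5.47 and 5.40 in KO and 5.01, 5.40 and 5.40 in WT (difference 0.13, 95% interval -0.14 to 0.40). Neither passed. The Nr4a3 difference was -0.80 without KO array 2 (limma adjusted p = 0.011), the array high in neutrophil markers.

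Of 10 genes that NR4A proteins regulate in T cells, 2 fell and 8 did not pass. Ikzf2, which encodes the transcription factor Helios, had 7.12, 7.05 and 6.78 in KO and 8.36, 8.43 and 7.84 in WT (difference -1.23, limma adjusted p = 0.0035). Tox, a nuclear factor of CD4 lineage development, had 7.84, 7.93 and 8.08 in KO and 8.91, 9.11 and 8.51 in WT (difference -0.90, limma adjusted p = 0.01). The KO arrays were below all WT arrays for both genes, as for 16.5% of all probe sets. The median of the list was -0.08, against 0.02 over all probe sets tested. Any link of these genes to Nr4a3 was not tested.

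The thyroid hormone receptors bind DNA with or without hormone. Thra, which encodes TR alpha, had 6.75, 6.61 and 6.65 in KO and 7.33, 7.30 and 7.13 in WT. All KO arrays were lower than all WT arrays, with means of 6.67 ± 0.07 in KO and 7.26 ± 0.11 in WT (SD, n = 3 each), a difference of -0.59 (SE 0.10, 95% interval -0.80 to -0.37, limma adjusted p = 0.010). This is 66.6% of the WT level on the linear scale (95% interval 57.3% to 77.4%). Probe sets of similar brightness, with a median signal of 6.97, had a median difference of -0.14, and after quantile normalization, which brought that median to -0.04, Thra differed by -0.49 (limma adjusted p = 0.013). Without KO array 2 it differed by -0.56 (limma adjusted p = 0.044).

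Thra overlaps Nr1d1, the REV-ERB alpha gene, in the RefSeq annotation, and the bases that the probes of either cover were not analysed here. Nr1d1 had 6.31, 6.47 and 6.56 in KO and 6.59, 6.31 and 6.50 in WT, with overlapping groups (difference -0.02, 95% interval -0.27 to 0.23, limma adjusted p = 0.91).

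Thrb, which encodes TR beta, was at or below background on every array, with 5.06, 5.17 and 4.67 in KO and 4.62, 4.27 and 4.48 in WT. Every KO array was above every WT array, but the difference of 0.51 (95% interval 0.18 to 0.83) did not pass (limma adjusted p = 0.071). It passed without KO array 3 (0.66, limma adjusted p = 0.045) and with an intensity trend in the variance (limma adjusted p = 0.0497), and it was 0.40 after quantile normalization (limma adjusted p = 0.17). None of 9 measured genes of thyroid hormone response and handling passed. Me1, the malic enzyme, had a difference of -0.54 and Crym, a thyroid hormone binding protein of the cytosol, one of 0.38 (limma adjusted p = 0.065 and 0.14), and the list's median was 0.16.

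The retinoic acid receptors pair with RXR and repress or activate their targets according to hormone. Rara, which encodes RAR alpha, had 8.49, 8.54 and 8.70 in KO and 8.42, 8.19 and 8.25 in WT. The KO arrays were all above the WT arrays, but the difference of 0.29 (SE 0.10, 95% interval 0.06 to 0.52) did not pass (limma adjusted p = 0.12). It was 0.41 after quantile normalization (limma adjusted p = 0.0547) and passed there once probe sets at background were left out as well (limma adjusted p = 0.039).

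Rarg, which encodes RAR gamma, had 5.70, 5.80 and 6.05 in KO and 5.07, 5.31 and 5.79 in WT. WT array 3 overlapped the KO arrays, and the difference of 0.46 (95% interval 0.07 to 0.85, limma adjusted p = 0.14) passed when that array was left out (0.66, limma adjusted p = 0.028). That was the only 1 of 17 other settings in which it passed. After quantile normalization the difference was 0.36 (limma adjusted p = 0.26). Rarb, which encodes RAR beta, was below background on all arrays (difference 0.26, 95% interval -0.01 to 0.53).

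Of 9 measured retinoic acid targets 1 rose, 1 fell and 7 did not pass, with a median of -0.05. The share called was 22.2%, against 5.79% of all probe sets. Dhrs3, a retinaldehyde reductase, had 9.37, 8.98 and 9.49 in KO and 10.64, 10.44 and 10.56 in WT (difference -1.26, SE 0.13, limma adjusted p = 0.0016), with no overlap. Crabp2, a retinoic acid binding protein, had 4.98, 5.24 and 5.06 in KO and 4.63, 4.49 and 4.67 in WT (difference 0.50, limma adjusted p = 0.027). Crabp2 lay at or below background and was not called after quantile normalization (0.38, limma adjusted p = 0.0513). None of 10 genes of retinoid synthesis and transport passed, and the smallest p were those of the retinaldehyde dehydrogenase Aldh1a1 (0.37) and the binding protein Crabp1 (0.34), with limma adjusted p of 0.064 and 0.14.

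The RXR proteins are the shared partners of many of these receptors. Rxrb had 8.0, 7.94 and 7.85 in KO and 8.17, 7.96 and 7.93 in WT (difference -0.09, 95% interval -0.31 to 0.14). Rxra had 5.98, 5.82 and 5.87 in KO and 5.60, 5.98 and 6.23 in WT (difference -0.04, 95% interval -0.37 to 0.29). Groups overlapped for both, and Rxrg was below background.

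The steroid receptors are held by chaperones until hormone binds. Nr3c1, the glucocorticoid receptor, had 9.19, 9.14 and 9.08 in KO and 9.63, 9.64 and 9.24 in WT. Each KO array was below each WT array, but WT array 3 lay near the KO arrays, and the difference of -0.37 (SE 0.12, 95% interval -0.64 to -0.10) did not pass (limma adjusted p = 0.10). It passed without WT array 3 (-0.50, limma adjusted p = 0.023), with array weights (-0.43, limma adjusted p = 0.036) and with an intensity trend in the variance (limma adjusted p = 0.043). These were 3 of 17 other settings, and it did not pass under the rest. After quantile normalization the difference was -0.31 (limma adjusted p = 0.17).

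Of 16 glucocorticoid receptor targets 1 rose, 3 fell and 12 did not pass, with a median of -0.07. That is 25.0% called, beside 5.79% of all probe sets. Fkbp5, an immunophilin that lowers the receptor's hormone affinity, had 10.08, 9.80 and 9.86 in KO and 10.50, 10.66 and 10.23 in WT (difference -0.55, limma adjusted p = 0.041). Rgs2, a regulator of G protein signalling, had 6.13, 6.12 and 6.39 in KO and 7.20, 6.94 and 6.82 in WT (difference -0.77, limma adjusted p = 0.0094). Il7r, the interleukin-7 receptor chain, had 4.47, 4.73 and 4.31 in KO and 5.30, 5.79 and 5.97 in WT (difference -1.19), so its KO values lay below background and are upper limits.

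Zfp36, an mRNA decay factor, rose by 0.49 (limma adjusted p = 0.0492). The KO arrays did not overlap the WT arrays for any of these 4. With 1 array left out in turn, Zfp36 was called in 1 of 6 fits and Fkbp5 in 2, and Rgs2 and Il7r in all 6. Of 9 measured chaperones of the receptor none passed, and the 2 with the smallest p, the cochaperones Bag1 (-0.29) and Fkbp4 (-0.28), had limma adjusted p of 0.085 and 0.14.

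Enzymes that make or inactivate steroids changed in both directions, with 2 of 11 higher, 1 lower, 8 not passing and a median of 0.01. Called genes made up 27.3%, against 5.79% of all probe sets. Hsd11b1, which regenerates active glucocorticoid from its inert keto form, had 7.37, 7.31 and 7.49 in KO and 6.74, 6.62 and 6.81 in WT (difference 0.67, SE 0.10, limma adjusted p = 0.0057). All KO arrays were higher, and the call held in all 6 fits that left out 1 array. Hsd17b4, a peroxisomal enzyme of fatty acid and steroid oxidation, differed by -0.38 and Cyp11b1, the last enzyme of glucocorticoid synthesis in the adrenal, by 0.36 (limma adjusted p = 0.046 and 0.0476). With 1 array left out these were called in 1 and 0 of 6 fits, Cyp11b1 lay below background, and neither was called after quantile normalization (limma adjusted p = 0.12 and 0.11).

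The estrogen-related receptors are orphans that drive mitochondrial genes. Esrra had 6.94, 7.07 and 7.07 in KO and 7.02, 6.73 and 7.0 in WT, with overlap (difference 0.11, 95% interval -0.13 to 0.35). Esrrg had 5.67, 5.72 and 5.50 in KO and 5.14, 5.27 and 5.37 in WT, all KO arrays higher, and its difference of 0.37 did not pass (95% interval 0.14 to 0.60, limma adjusted p = 0.068; 0.26 after quantile normalization). It passed when dim probe sets were left out (limma adjusted p = 0.0475). Esr1, the estrogen receptor alpha gene, had 5.14, 5.24 and 5.21 in KO and 5.15, 4.96 and 5.23 in WT, at the background level and overlapping.

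Esr2, Esrrb, the mineralocorticoid receptor gene Nr3c2 and the progesterone receptor gene Pgr were at or below background, with differences from 0.07 to 0.32 and no adjusted p under 0.12. None of 11 measured targets of the estrogen-related receptors passed (median -0.20), with the smallest p for the succinate dehydrogenase subunit Sdha (-0.26, limma adjusted p = 0.10) and cytochrome c, Cycs (-0.32, limma adjusted p = 0.13).

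Among lipid sensors none of 9 measured receptors passed. Nr1h3, which encodes LXR alpha, the oxysterol sensor of macrophages and liver, had 5.95, 5.94 and 5.66 in KO and 5.52, 5.50 and 5.54 in WT. All KO arrays were higher, but the difference of 0.33 (95% interval 0.10 to 0.56, limma adjusted p = 0.091) did not pass, and it was 0.24 after quantile normalization. The macrophage markers had summed signals of 348, 441 and 337 in KO and 307, 332 and 343 in WT, and their part in this difference was not tested. The 441 was on KO array 2, the array high in neutrophil markers. There the macrophage marker Lyz2 was 6.65, against 4.09 to 4.71 on the other arrays.

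Ppard, the widely expressed fatty acid sensor, had 7.50, 7.47 and 7.23 in KO and 7.27, 7.24 and 7.38 in WT (difference 0.10, 95% interval -0.13 to 0.34). Pparg, the receptor of fat cells and macrophages, had 5.22, 5.68 and 5.61 in KO and 5.15, 5.30 and 5.47 in WT (difference 0.20, 95% interval -0.11 to 0.51). Nr1i3, the xenobiotic receptor CAR, had 5.12, 5.51 and 5.09 in KO and 4.96, 5.20 and 5.31 in WT (difference 0.08). The groups overlapped for all 3. Ppara, Nr1h4, Nr1h5, the vitamin D receptor gene Vdr and Nr1i2 lay below background with differences from -0.22 to 0.16.

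Of 13 LXR targets 2 rose, 1 fell and 10 did not pass, with a median of 0.05. In this list 23.1% were called, against 5.79% of all probe sets. Scd2, a fatty acid desaturase, had 11.30, 11.43 and 11.44 in KO and 10.86, 10.76 and 10.87 in WT (difference 0.56, limma adjusted p = 0.0096). Abcg1, a sterol exporter, differed by 0.58 and Smpdl3a, a phosphodiesterase, by -0.53 (limma adjusted p = 0.0469 and 0.032). With 1 array left out they were called in 1 and 3 of the 6 fits. After quantile normalization Abcg1 was not called (0.61, limma adjusted p = 0.065) and Smpdl3a was (-0.59, limma adjusted p = 0.018). None of 6 genes of oxysterol synthesis passed (median 0.13). The smallest p were those of the brain cholesterol hydroxylase Cyp46a1 (0.34, limma adjusted p = 0.13) and the oxysterol hydroxylase Cyp7b1 (0.14, limma adjusted p = 0.43), both at or below background.

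Of 13 measured PPAR targets 3 fell, none rose and 10 did not pass, with a median of -0.07. The called share was again 23.1%, against 5.79% of all probe sets. Plin2, which coats lipid droplets, had 7.55, 7.39 and 7.62 in KO and 8.72, 8.56 and 8.41 in WT (difference -1.04, SE 0.11, limma adjusted p = 0.0016). Acadl, the long-chain acyl-CoA dehydrogenase of fatty acid oxidation, had 7.37, 7.25 and 7.22 in KO and 8.01, 8.05 and 7.89 in WT (difference -0.70, SE 0.09, limma adjusted p = 0.0038). KO was below WT on every array for both, and both were called under all 17 other settings. Acadm, the medium-chain enzyme, differed by -0.40 (limma adjusted p = 0.0475) and was not called after quantile normalization (-0.27, limma adjusted p = 0.10).

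No vitamin D gene of 4 measured passed, with Camp, an antimicrobial peptide that is also one of the neutrophil markers, at 0.45 and the calcium channel Trpv6 at -0.41 (limma adjusted p = 0.092 and 0.098). Trpv6 passed after quantile normalization (-0.51, limma adjusted p = 0.0464).

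Among the orphan receptors of the NR2 family and HNF4 none of 8 measured passed. Nr2c1, which encodes the repressor TR2, had 7.0, 6.98 and 6.95 in KO and 7.35, 7.30 and 7.21 in WT. All KO arrays were lower (difference -0.31, SE 0.09, 95% interval -0.51 to -0.11, limma adjusted p = 0.072), and the difference was -0.19 after quantile normalization. It passed after median centring (-0.41, limma adjusted p = 0.037), with array weights (-0.32, limma adjusted p = 0.040) and without dim probe sets (limma adjusted p = 0.0475). Its partner Nr2c2, which encodes TR4, had 9.95, 9.93 and 9.94 in KO and 10.05, 10.06 and 9.92 in WT, with overlap (difference -0.07, 95% interval -0.27 to 0.13).

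Nr2f6, which encodes EAR2, a repressor of T cell cytokine genes, had 6.38, 6.19 and 6.05 in KO and 5.86, 5.87 and 6.16 in WT, with overlap (difference 0.24, 95% interval -0.03 to 0.51). Hnf4a, the liver factor, had 5.57, 5.90 and 5.75 in KO and 5.23, 5.52 and 5.66 in WT, also overlapping (difference 0.28). Hnf4g, Nr2e1, Nr2f1 and Nr2f2 were below background, with differences from 0.05 to 0.27. Nr2f1 and Nr2f2, the COUP-TF genes, are typical of stromal cells.

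Rora, a relative of the thymic ROR factors, had 5.29, 5.21 and 5.06 in KO and 5.37, 5.03 and 5.13 in WT, at the background level (difference 0.00, 95% interval -0.25 to 0.26), and Rorb was below it. Nr6a1, the germ cell nuclear factor, had 6.19, 6.15 and 6.28 in KO and 5.90, 6.04 and 6.05 in WT. Nr5a1, the steroidogenic factor of the adrenal and gonads, had 5.70, 5.92 and 5.74 in KO and 5.55, 5.53 and 5.55 in WT. For both, all KO arrays were higher, and neither difference passed (0.21 and 0.24, limma adjusted p = 0.19 and 0.15). Nr5a2 and the receptors without a DNA-binding domain, Nr0b1 and Nr0b2, were below background with differences from 0.02 to 0.15.

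Small positive differences were common among the dim receptors. Of the 20 receptors at or below background, 18 had a positive difference (median 0.13), as did 71.8% of all probe sets in that range (median 0.08). After quantile normalization 12 of the 20 were positive (median 0.03), against 54.2% of all such probe sets (median 0.01). Above background 15 of 23 receptors were positive, with a median of 0.10, against 41.6% of probe sets and a median of -0.06, and after quantile normalization 14 of 23, with a median of 0.07, against 48.7% and -0.01.

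**Figure D3:**
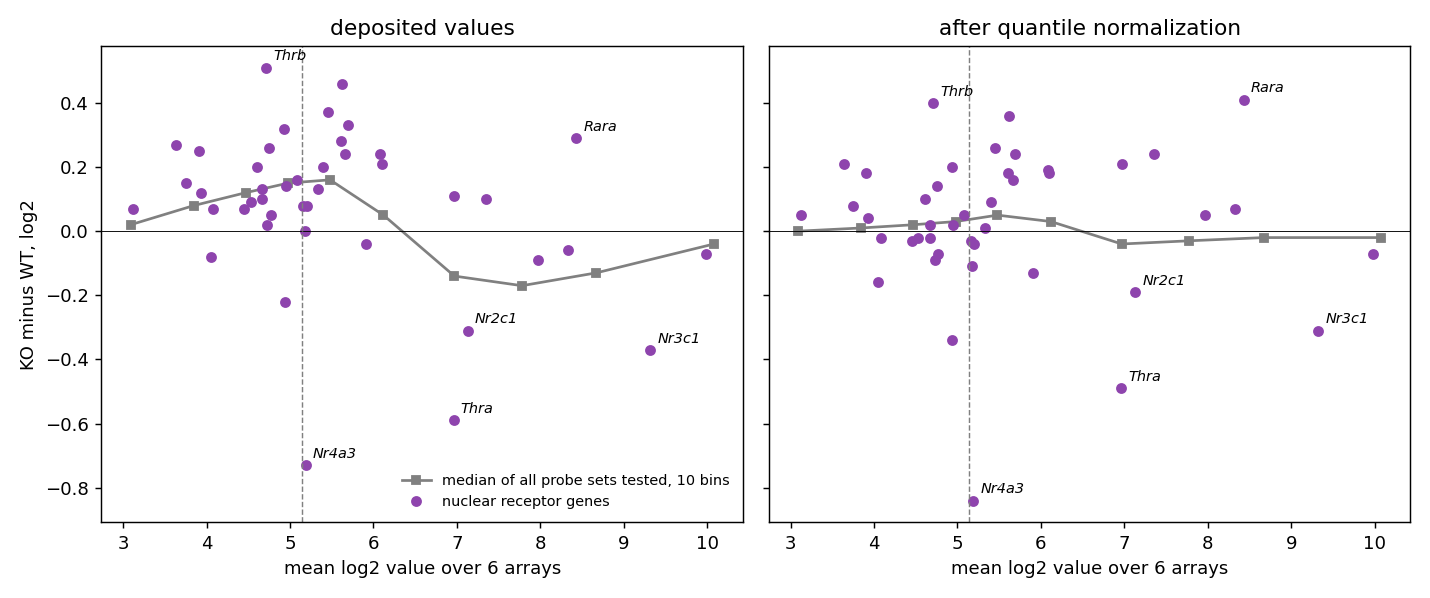
Log2 difference, KO minus WT, against mean log2 value over 6 arrays for the 43 receptor genes (purple) and the medians of all probe sets tested in 10 bins of equal size (grey squares), as deposited on the left and after quantile normalization on the right; the dashed line is the background level. The bin medians run from -0.17 to 0.16 as deposited and from -0.04 to 0.05 after normalization, and Thra and Nr4a3 lie well below them in both panels.

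**Figure D4:**
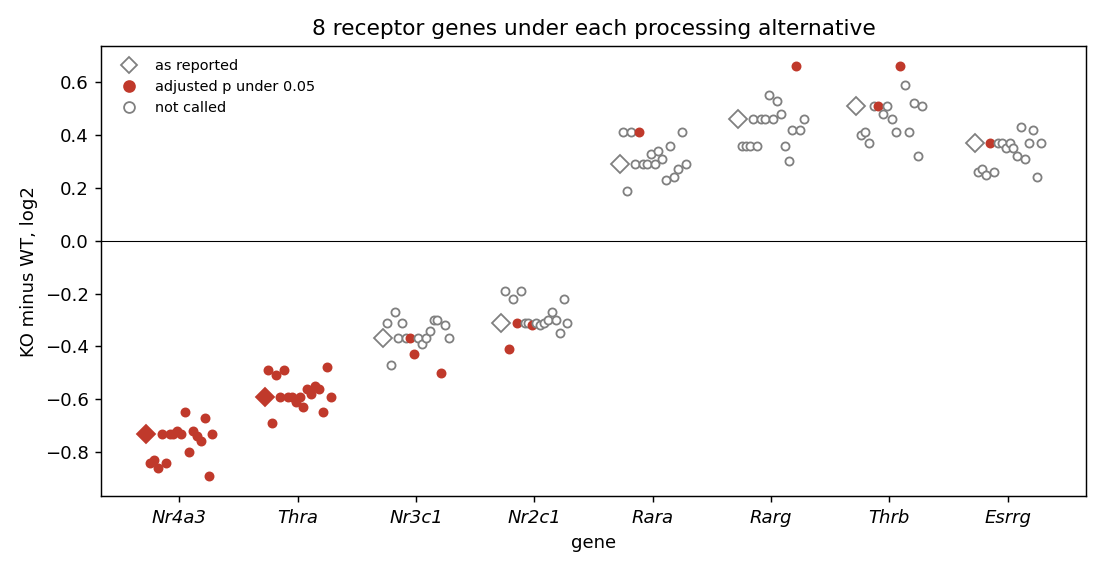
Log2 difference, KO minus WT, of 8 receptor genes as reported (diamond) and under each processing alternative (circles), filled red where the adjusted p was under 0.05. Nr4a3 and Thra are called throughout, and the other 6 in 1 to 3 alternatives each.

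Across the 12 lists of receptor targets and ligand handling, 17 of 119 different genes were called (14.3%), 6 higher and 11 lower, beside 5.79% of all probe sets, and their median difference was -0.01. The lists were chosen with earlier results of these data known, so this share is a description.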

How the data were processed

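The 6 arrays were analysed, 3 of KO and 3 of WT DP thymocytes, grouped by sample title. RNA was labelled with an Affymetrix whole-transcript sense kit, per the labels' protocols. The deposited values are taken as log2 from their range (1.94 to 13.98). For background correction, normalization and probe summary no method is stated there. Genes were named from the platform annotation: of 28853 probe sets 21789 had 1 symbol, 1621 several and 5443 none, and 21698 of the first matched RefSeq (GRCm38.p6) by Entrez identifier.

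The 23410 probe sets with a symbol were tested together with limma 3.58.1 (lmFit, eBayes, R 4.3.3), two-sided, with Benjamini-Hochberg adjustment over all of them and a threshold of 0.05. Differences are KO minus WT on the log2 scale. The number of arrays limits the precision (median SE 0.11). With 3 arrays a group the lowest exact permutation p is 0.1, so that test was not run. Each of 20 simulated data sets held known changes in 200 of the 23410 probe sets. The fit recovered 27.3% of changes of 0.5, 80.8% of 1 and 98.6% of 2, with 3.81% of calls false. Simulated noise was independent between probe sets and the compression of the KO arrays was left out. In the real data 1355 probe sets were called, so the rates there may differ.

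Values on every array are given for receptors that were called or above background, and from each list up to 4 called genes with the largest change, or, in lists without a call, the 2 genes of lowest p. Chaperone, target and enzyme lists and the receptors were chosen with earlier results of these data known. The promoter motifs, Nr1d1, and the genes Thrb and Rarb were chosen after values were seen.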

Additional observations from a re-analysis of the deposited data

How the results depend on the processing

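The settings tried were quantile, median and cyclic loess scaling, leaving out dim probe sets, testing all probe sets, an intensity trend with robust prior, weights per array, a replicate block, omission of each array in turn, using only probe sets with 1 symbol, and, chosen after seeing the data, quantile normalization without KO array 2. Averaging probe sets per gene gave the same values, since each receptor had 1. The count of called receptors, 2 as reported, was 4 without dim probe sets, 4 with the intensity trend and 4 with array weights, and 2 to 4 with 1 array left out (4 without WT array 3, which added Nr3c1 and Rarg). The replicate block gave 2. Calls over all probe sets were more frequent too in the settings that gave 4 receptors, with 1731 of 14495 without dim probe sets, 1899 of 23410 with the intensity trend, 2285 of 23410 with array weights and 1946 of 23410 without WT array 3, against 1355 of 23410 as reported. Receptors above background were 12 at the 99th percentile, against 23.

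Over all probe sets, 1355 calls became 2060 after median centring, 2285 with array weights, 437 after quantile normalization without KO array 2 and 474 to 1946 with 1 array left out: 826, 474 and 489 without KO arrays 1 to 3, and 517, 505 and 1946 without WT arrays 1 to 3. The replicate block gave 1162. Called genes of the target lists, 17 as reported, were 9 to 20 with 1 array left out and 9 after quantile normalization without KO array 2. They were 11, 11 and 9 without KO arrays 1 to 3 and 9 without WT array 1. The causes were not tested.

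Across 17 alternatives 53 single genes were followed: 24 receptors, each above background or called in an alternative, and genes named from the lists. Of their values 755 kept direction and side of the threshold, 25 passed newly and 71 no longer passed (none of these a receptor). Another 34 changed sign, all in 7 of these receptors, none of which was called. The other measured receptors were not followed in this way. Some of them changed sign too, as Pgr did, from 0.09 to -0.02 after quantile normalization. With quantile normalization, cyclic loess, quantile normalization without dim probe sets and quantile normalization without KO array 2, in that order, Rxrb was 0.05, 0.04, 0.05 and 0.02, Nr1i3 -0.04, -0.05, -0.04 and -0.15, Rora -0.11, -0.13, -0.11 and -0.09, Esr1 -0.03, -0.05, -0.03 and -0.02, and Nr4a1 0.07, 0.06, 0.07 and 0.02. Median centring gave -0.02 for Nr1i3, -0.10 for Rora and -0.02 for Esr1, cyclic loess 0.00 for Nr2c2 and array weights 0.00 for Nr4a1. With 1 array left out the range was -0.21 to 0.10 for Rxra, -0.05 to 0.16 for Nr1i3, -0.07 to 0.10 for Rora and -0.17 to 0.07 for Nr4a1.

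Deviations of same-numbered arrays from their group means correlated at 0.254, -0.071 and -0.0326 across probe sets, so the numbers were not taken as pairs, and not every array correlated best with its own number. Detection was judged against olfactory receptor probe sets alone, and 20 receptors lay at or below that level.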
